A study of Homo sapiens with 2 samples.

Results

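The glucocorticoid receptor gene NR3C1, the mineralocorticoid receptor gene NR3C2 and 6 genes known to be induced by glucocorticoids were examined in untreated leukemia cell lines of the B-cell precursor type (BCP-ALL). The targets were TSC22D3, FKBP5, PER1, KLF9, ZBTB16 and DUSP1. The 8 genes were chosen by symbol and function, with earlier results of these data known. All 8 were found among the 57773 gene IDs counted. RNA sequencing was performed on REH, an ETV6/RUNX1-positive line in which the other ETV6 allele is deleted, and on 697, which is ETV6/RUNX1-negative. Each cell line was represented by 1 library. Cells of both lines were grown in RPMI medium with 10% fetal bovine serum, and neither the labels nor the culture methods name an added steroid. Whether the serum had been depleted of steroids is not given in the sources used here.

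Glucocorticoids such as cortisol and dexamethasone bind a receptor that is held in the cytoplasm by heat shock chaperones. The bound receptor enters the nucleus and switches genes on or off by attaching to DNA directly or through other factors. In lymphoid cells it can arrest growth and start apoptosis, which is why these steroids are a backbone of leukemia treatment. The line 697 is widely used as a glucocorticoid-sensitive model and REH as a resistant one, a property that was not measured here.

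The starts of these genes were inspected first, because steroid response elements and other control sequences can lie there. RefSeq (GRCh38.p14) listed 20 windows of 250 bases before a start for 7 of the members, with 7 windows for NR3C1, 4 each for NR3C2 and TSC22D3, 2 for FKBP5 and 1 each for DUSP1, KLF9 and PER1. ZBTB16 was not in that table. The core hexamer of a receptor element, AGAACA or TGTTCT on the other strand, was in 0 of the 20 windows, against 12.4% of 35116 windows over all genes. This says only that these letters were absent from these windows. The number of CpG dinucleotides differed widely between members, from 1 in the KLF9 window and 0 to 42 in those of NR3C1 to a median of 11 over all windows. Below, 1 NR3C1 window (chr5:143405356-143405605, minus strand) and the KLF9 window (chr9:70414658-70414907, minus strand) are shown 5′ to 3′ with each CG in capitals, because they belong to the receptor and to the target with the largest difference in RNA level.
NR3C1: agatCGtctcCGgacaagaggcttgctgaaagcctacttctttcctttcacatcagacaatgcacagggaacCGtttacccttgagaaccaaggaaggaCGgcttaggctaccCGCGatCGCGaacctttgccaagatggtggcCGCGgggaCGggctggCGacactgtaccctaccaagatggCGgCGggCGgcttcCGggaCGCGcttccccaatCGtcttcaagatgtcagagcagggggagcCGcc
KLF9: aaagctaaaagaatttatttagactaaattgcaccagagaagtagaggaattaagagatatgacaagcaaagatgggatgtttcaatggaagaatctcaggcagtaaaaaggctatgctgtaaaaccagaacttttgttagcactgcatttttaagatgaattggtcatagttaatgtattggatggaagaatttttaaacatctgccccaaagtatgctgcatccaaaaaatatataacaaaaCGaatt

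The NR3C1 stretch held 20 CpG in 59.6% G and C, and the KLF9 stretch held 1 CpG in 32.4% G and C. Of all windows, 14.7% had at most as many CpG as that of KLF9. Of the NR3C1 windows it was the one with the most CpG among those that no GENCODE 44 exon touches, and it lies within an intron of NR3C1 transcripts that begin further upstream. Gene-level counts do not tell which start was used.

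DUSP1 and PER1 respond to cyclic AMP, stress or serum as well as to steroids, so their windows are shown with 3 other motifs in capitals. These are the cyclic AMP element TGACGTCA, the E-box CACGTG, both of which read the same on either strand, and the TATA box TATAAA on the strand of the gene. The DUSP1 stretch is chr5:172771196-172771445 and the PER1 stretch is chr17:8152436-8152654, both on the minus strand, the latter shortened to 219 bases to leave out an annotated exon.
DUSP1: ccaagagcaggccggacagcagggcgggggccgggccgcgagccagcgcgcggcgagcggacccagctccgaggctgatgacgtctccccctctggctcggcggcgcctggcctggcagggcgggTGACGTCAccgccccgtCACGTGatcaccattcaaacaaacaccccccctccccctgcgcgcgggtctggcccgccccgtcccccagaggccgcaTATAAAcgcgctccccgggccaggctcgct
PER1: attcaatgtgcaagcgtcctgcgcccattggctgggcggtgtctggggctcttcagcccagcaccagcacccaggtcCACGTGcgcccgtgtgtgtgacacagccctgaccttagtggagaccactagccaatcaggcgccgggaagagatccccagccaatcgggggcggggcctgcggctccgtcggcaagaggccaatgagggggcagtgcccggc

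In DUSP1 the cyclic AMP element began 125 bases, the E-box 108 bases and the TATA box 30 bases before the start. In PER1 an E-box began 173 bases before the start. No motif overlapped another in these stretches. Over all windows, 1.65% held the cyclic AMP element, 6.34% the E-box and 6.80% the TATA box, and of the 20 member windows 1, 3 and 3 did. Such matches describe the sequence and do not show a bound site.

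To measure the members, reads on either strand of each gene were used. In total, 45188375 reads fell in genes in REH and 41097497 in 697. Levels are given as CPM, reads of a gene per 1000000 reads in genes, after the library totals were scaled by the trimmed mean of M-values (TMM). Log2 ratios are REH over 697 with 0.5 reads added to each count, and each interval is a 95% exact (Clopper-Pearson) interval that covers counting error only. With 1 library per line there is no replicate error and no test, so every ratio compares these libraries and not the lines in general. The threshold for calling a gene higher in either line was set at 4-fold, a log2 ratio of 2 or more in either direction. In bulk RNA, fewer cells that express a gene and less RNA per cell cannot be told apart.

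The B-lineage identity of the libraries was checked with 8 markers. Of these, 7 in REH and 8 in 697 were above 100 CPM, and the exception was VPREB1, a surrogate light chain gene, with 3 reads in REH. T-cell markers summed to 1.03 CPM in REH and 0.298 CPM in 697, with CD3D and CD2 at 0 reads in both. Of the REH sum, CD3E gave 0.895 CPM (45 reads against 0 in 697), and CD8A had 0 reads in REH and 10 in 697. Erythroid markers summed to 0.418 and 0.460 CPM. Of 6 myeloid markers, MPO stood at 252 CPM in REH and 0.325 CPM in 697 and ITGAM at 8.02 CPM and 0 reads. CD14 had 29 reads in REH and 8 in 697, whereas CSF1R went the other way with 30 and 61. LYZ had 1 and 2 reads and FCGR3A 0 and 1. Of 5 stromal markers, COL1A2, COL3A1 and LUM had 0 reads in both, COL1A1 had 477 and 387 reads, and PDGFRB reached 23.8 and 54.3 CPM. The part of these differences in the members' levels was not tested.

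NR3C1, which encodes the glucocorticoid receptor (ENSG00000113580, chromosome 5, 143277931 to 143435512, GRCh38), was expressed in both lines and was higher in 697. There were 3436 reads or 68.4 CPM in REH (interval 66.1 to 70.7) and 8087 reads or 219 CPM in 697 (interval 214 to 224). The log2 ratio was -1.68 (interval -1.74 to -1.62), so the 697 library held 3.20 times as much NR3C1 RNA as REH (interval 3.08 to 3.33). The difference was larger than counting error but did not reach the 4-fold threshold. Without TMM scaling the log2 ratio was -1.37.

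NR3C2, the mineralocorticoid receptor gene (ENSG00000151623, chromosome 4, 148078762 to 148444698), showed the opposite order at a far lower level. This receptor binds cortisol as well as aldosterone. It had 170 reads or 3.38 CPM in REH (interval 2.89 to 3.93) and 16 reads or 0.433 CPM in 697 (interval 0.248 to 0.703). The log2 ratio was 2.93 (interval 2.22 to 3.80), and NR3C2 was the member past the threshold in REH. Per kb of exon, NR3C1 exceeded NR3C2 14.6-fold in REH and 365-fold in 697, the latter resting on 16 NR3C2 reads. Both libraries therefore had far more NR3C1 than NR3C2 RNA, and the gap was wider in 697.

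KLF9 had the largest ratio of the members. It encodes a Krüppel-like zinc finger repressor whose gene is an early glucocorticoid target (ENSG00000119138, chromosome 9, 70384604 to 70414657). A single read (1) was counted in REH, or 0.0199 CPM (interval 0.000504 to 0.111), against 1141 reads or 30.9 CPM in 697 (interval 29.1 to 32.7). The log2 ratio was -10.02, with a wide interval of -15.91 to -8.12 because of the lone read. KLF9 was the member past the threshold in 697. With 5 reads added in place of 0.5, its log2 ratio was -8.02.

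FKBP5, a receptor cochaperone that lowers the affinity of the receptor for its hormone (ENSG00000096060, chromosome 6, 35573585 to 35728583), was also higher in 697. It had 4884 reads or 97.2 CPM in REH (interval 94.5 to 99.9) and 7813 reads or 211 CPM in 697 (interval 207 to 216). Its log2 ratio was -1.12 (interval -1.17 to -1.07), short of the threshold of 2. Without TMM scaling it was -0.81. FKBP5 and NR3C1 were thus both at a higher level in 697, each by less than 4-fold.

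TSC22D3, which encodes the leucine zipper protein GILZ (ENSG00000157514, chromosome X, 107713221 to 107777342), showed a modest difference the other way. There were 2462 reads or 49.0 CPM in REH (interval 47.1 to 51.0) and 1129 reads or 30.6 CPM in 697 (interval 28.8 to 32.4). At a log2 ratio of 0.68 (interval 0.58 to 0.78), REH held 1.60 times as much. In GENCODE 44 its exons overlap NCBP2L on the opposite strand, where unstranded counting would leave reads unassigned. Its reads by strand (1241 and 1221 in REH, 551 and 578 in 697) added up to the unstranded count, so no such loss was seen.

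DUSP1, a phosphatase that switches off MAP kinases (ENSG00000120129, chromosome 5, 172768096 to 172771195), was the most abundant member in REH. It had 13969 reads or 278 CPM in REH (interval 273 to 283) and 5931 reads or 161 CPM in 697 (interval 156 to 165). With a log2 ratio of 0.79 (interval 0.75 to 0.84), REH held 1.73 times as much. In CPM, NR3C1 and FKBP5 were above DUSP1 in 697, but these genes are several times longer, and per kb of exon DUSP1 led there too.

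PER1, a repressor of the circadian clock (ENSG00000179094, chromosome 17, 8140472 to 8156506), differed least. There were 3135 reads or 62.4 CPM in REH (interval 60.2 to 64.6) and 2391 reads or 64.7 CPM in 697 (interval 62.1 to 67.4). The log2 ratio was -0.05 with an interval that spans 0 (-0.13 to 0.02). Its sign depended on the scaling, since the ratio was 0.25 without TMM. In GENCODE 44 PER1 shares exon sequence with another coding gene on its strand, where reads would be ambiguous and not counted.

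ZBTB16, a zinc finger gene strongly induced by glucocorticoids in many tissues (ENSG00000109906, chromosome 11, 114059041 to 114256765), was not detectable at this depth. It had 1 read in REH and 0 in 697. A count of 0 allows up to 3 reads, or 0.0812 CPM in 697, and 3 reads correspond to 0.0597 CPM in REH. No ratio is given.

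**Figure D1:**
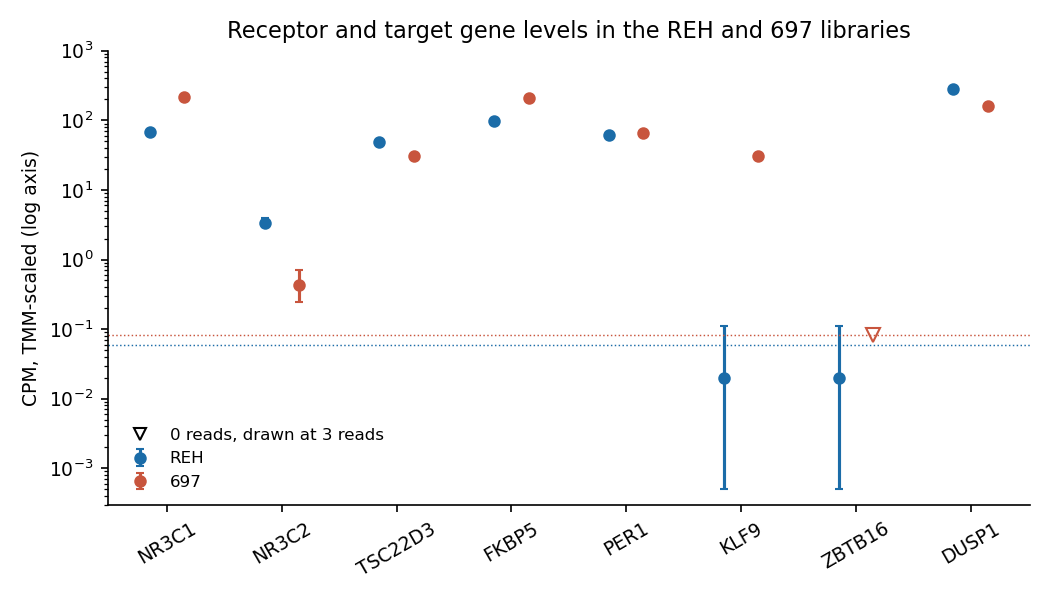
CPM (TMM-scaled, log axis) of the 8 members in the REH (blue) and 697 (red) libraries, with 95% counting intervals and 1 library per line. Dotted lines mark 3 reads in each library, and the open triangle marks 0 reads, drawn at the level of 3 reads. KLF9 falls below the dotted line in REH and stands at 30.9 CPM in 697, while ZBTB16 is at or below the line in both.

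In all, 7 of the 8 members reached the minimum of 10 reads in at least 1 library and were compared. Of these, 1 (NR3C2) was past the threshold in REH and 1 (KLF9) in 697. Over the 19145 genes compared, 12.5% were past it in REH and 8.15% in 697. At a log2 ratio of 1 the members past the threshold were 1 in REH and 3 in 697 (NR3C1, FKBP5 and KLF9), against 22.4% and 17.4% of all genes. With 7 genes such shares are too coarse to set the members apart from the background. The median log2 ratio was -0.05 over the members and 0.05 over all genes compared, whose middle quartiles ran from -0.65 to 0.85. Without TMM scaling the members' median was 0.25, so its sign depended on the scaling. The targets thus differed in direction, with TSC22D3 and DUSP1 higher in REH, FKBP5 and KLF9 higher in 697 and PER1 within counting error.

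**Figure D2:**
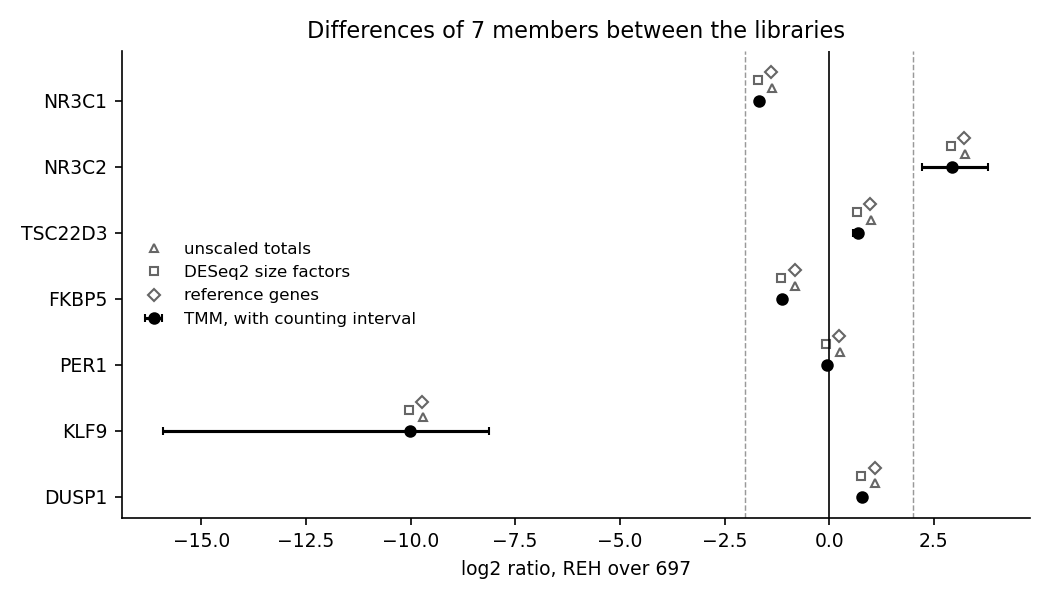
Log2 ratio (REH over 697) of the 7 members compared, with 95% counting intervals under TMM scaling (black) and values under 3 other scalings (open symbols). Dashed lines mark a ratio of 2 in size. KLF9 at -10.02 and NR3C2 at 2.93 lie outside them, and PER1 crosses 0 with the scaling.

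Levels of different genes were then compared within each library as CPM per kb of summed exon length. In REH the order was DUSP1 at 138, TSC22D3 at 9.88, FKBP5 at 9.14, PER1 at 8.91, NR3C1 at 7.46 and NR3C2 at 0.512 CPM per kb, followed by KLF9 and ZBTB16 with 1 read each. The intervals of FKBP5 and PER1 overlapped, so their order was within counting error. In 697 the order was DUSP1 at 79.7, NR3C1 at 23.9, FKBP5 at 19.9, PER1 at 9.24, TSC22D3 at 6.16, KLF9 at 5.94 and NR3C2 at 0.0655 CPM per kb, with ZBTB16 at 0 reads. There the intervals of TSC22D3 and KLF9 overlapped. NR3C1 therefore ranked 5th of the members in REH and 2nd in 697.

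Among the 12977 protein-coding genes in REH and 12229 in 697 that reached 10 reads, NR3C1 stood at the 58.1 percentile in REH and at the 85.0 percentile in 697. FKBP5 stood at 64.1 and 81.2. DUSP1 was near the top of both libraries, at 99.2 and 96.8, and PER1 held a similar place in both, at 63.4 and 61.5. TSC22D3 stood at 66.4 in REH and 49.8 in 697. NR3C2 was among the lowest genes counted, at 16.2 and 1.86. KLF9 stood at the 48.9 percentile in 697, a mid-range level.

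**Figure D3:**
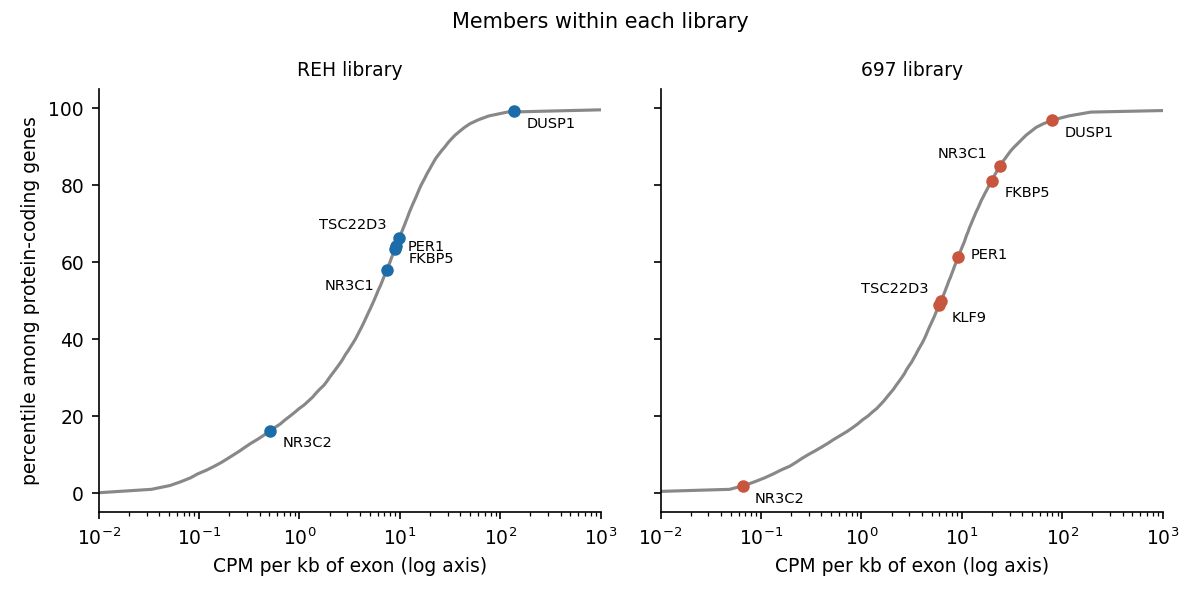
Percentile among protein-coding genes that reached 10 reads against CPM per kb of exon (log axis), in REH (left) and 697 (right). Points are members with at least 10 reads in that library, on the grey curve of all such genes. NR3C1 sits at 58.1 in REH and 85.0 in 697, and DUSP1 lies near the top of both curves.

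The genes that carry, assist or feed the receptor were examined next. Of the related steroid receptors, ESR1, the estrogen receptor alpha gene, was higher in REH, with 982 reads or 19.5 CPM against 132 reads or 3.57 CPM (log2 ratio 2.45, interval 2.19 to 2.72). ESR2 had 31 reads in each library and PGR, the progesterone receptor gene, had 0 in both.

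The chaperones that fold and hold the receptor were, with 1 exception, within the threshold. All 14 were compared. Past the threshold were 1 in REH (7.14%, against 12.5% of all genes) and 0 in 697 (against 8.15% of all genes). The median log2 ratio was 0.32. HSPA1A, an inducible HSP70 gene, was the exception, its 150 reads in REH against 3 giving a log2 ratio of 4.98 (3.62 to 7.49). It has a near-identical neighbour copy, HSPA1B, and reads that match both were not counted, so its value is uncertain. The HSP90 genes HSP90AA1 (689 and 1141 CPM, log2 ratio -0.73) and HSP90AB1 (997 and 1660 CPM, log2 ratio -0.74) were both higher in 697, by less than the threshold. FKBP4, the cochaperone that opposes FKBP5, was lower in 697, at 38.8 against 61.8 CPM, a log2 ratio of 0.67. Per kb of exon, FKBP5 was 0.764 times FKBP4 in REH and 2.65 times FKBP4 in 697, so the order of this pair differed between the libraries.

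Coactivators and corepressors of the receptor were close to even. Of 18 genes compared, 0 were past the threshold in either direction, against 12.5% of all genes in REH and 8.15% in 697. Their ratios were 9 above and 9 below 0, with a median of 0.06. The largest was CREBBP, a histone acetyltransferase, at 598 CPM against 226 CPM in 697, a log2 ratio of 1.41 (1.37 to 1.44). The other members of the list lay between -0.64 (CARM1) and 0.71 (EP300).

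Of 5 genes for ligand metabolism and export, 3 were compared. HSD11B1, the enzyme that turns inactive cortisone into cortisol, had 0 reads in REH and 83 reads or 2.25 CPM in 697. Set against the floor of 3 reads in REH, the 697 level was 37.6 times as high, and the counting interval of the ratio reached down to 29.9-fold. H6PD, which supplies the cofactor of HSD11B1 in the endoplasmic reticulum, was at 110 CPM in 697 against 34.7 CPM, a log2 ratio of -1.67 (-1.75 to -1.59). Both genes of this cortisol-forming pair were higher in 697, the second by less than 4-fold. SRD5A1, a steroid reductase, differed little (23.8 and 21.8 CPM, log2 ratio 0.12). HSD11B2, which inactivates cortisol, had 5 and 0 reads, and the drug pump ABCB1 had 0 and 1 reads.

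A wider list of 40 genes that glucocorticoids induce in lymphoid or other cells was described in the same way. One gene, TXNIP, had no matching ID, 4 (CEBPD, PDK4, PFKFB2 and SLA) were under 10 reads, and 35 were compared. Past the threshold were 5 in REH (14.3% of those compared) and 3 in 697 (8.57%), close to the 12.5% and 8.15% of all genes. At a log2 ratio of 1 there were 13 of 35 in REH and 4 of 35 in 697, against 22.4% and 17.4% of all genes. The median log2 ratio was 0.36. Higher in REH were P2RY14, a nucleotide receptor gene (182 and 2 reads, log2 ratio 5.75), ERRFI1, an inhibitor of EGF receptor signalling (526 and 26 reads, 3.87), RCAN1, an inhibitor of calcineurin (8575 and 803 reads, 2.97), ZFP36L2, an mRNA decay factor (17849 and 2548 reads, 2.36), and CRISPLD2 (20 and 3 reads, 2.11). The interval of CRISPLD2 reached down to 0.54.

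Higher in 697 were GSDME, which encodes a pore-forming gasdermin (24 and 4804 reads, -8.06 on the log2 scale), and the metallothionein genes MT1X (48 and 2791 reads, -6.29) and MT2A (177 and 739 reads, -2.50). Metallothionein genes resemble one another, and reads shared between copies were not counted. BCL2L11, which encodes the pro-apoptotic protein BIM, was higher in 697, at 75.2 against 43.8 CPM, with a log2 ratio of -0.78 (-0.86 to -0.70). BMF, another pro-apoptotic BH3-only gene, went the other way, with 28.8 and 9.83 CPM (log2 ratio 1.55, interval 1.39 to 1.72). Neither was past the threshold. Larger ratios that were also short of it included MAP3K6 (1.93) and TNFAIP3 (1.91) toward REH and RGS2 (-1.35) toward 697.

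**Figure D4:**
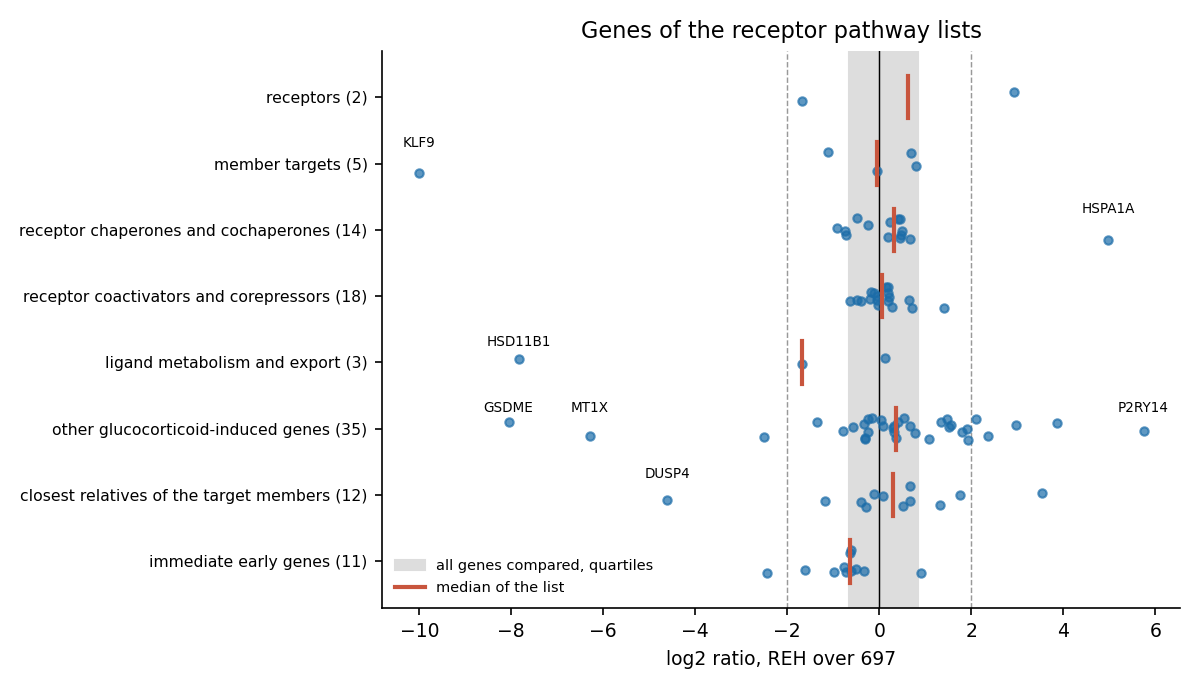
Log2 ratio (REH over 697) of each gene compared in the receptor pathway lists, with the number compared in brackets, the list median (red bar) and the middle quartiles of all genes (grey band). Chaperones other than HSPA1A and the coregulators lie between -0.91 and 1.41, whereas KLF9, HSD11B1, GSDME and MT1X lie far to the left. The position of HSD11B1, with 0 reads in REH, depends on the reads added.

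The nearest relatives of the targets were then set beside them. PER2 and PER3, the other period genes, were higher in REH, at 47.2 against 29.7 CPM (log2 ratio 0.67) and 30.7 against 9.07 CPM (log2 ratio 1.76), while PER1 was level. Among the dual-specificity phosphatases, DUSP4 rested on 2545 reads in 697 against 142, a log2 ratio of -4.60 (-4.86 to -4.36), the reverse of DUSP1, and DUSP6 had 423 and 170 CPM (log2 ratio 1.31). KLF13, a close relative of KLF9, was present in both at 116 and 109 CPM (log2 ratio 0.09), so the near absence of KLF9 reads in REH was not shared by that relative. TSC22D1 (log2 ratio -0.30), TSC22D2 (0.51) and TSC22D4 (-0.11) stayed within the middle quartiles of all genes. ZBTB32 had 87 and 5 reads (log2 ratio 3.55). In this list of 13 genes, of which PER2, KLF13 and FKBP4 are in other lists too, 12 were compared, with a median of 0.30. In each direction 1 (8.33%) was past the threshold, against 12.5% of all genes in REH and 8.15% in 697.

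DUSP1 and PER1 are also switched on within minutes by serum or handling of cells, so 12 immediate early genes were inspected. Of 11 compared, 10 had a ratio below 0 and 1 (IER2, log2 ratio 0.90) above 0, with a median of -0.62. Over all genes compared, 52.1% had a ratio above 0. The 10 reference genes also leaned below 0 (7 of 10, median -0.30), and without TMM scaling the median of the immediate early genes was -0.32. NR4A1 was past the threshold in 697 (288 reads against 72, -2.44 on the log2 scale). FOS had 146 and 182 reads and EGR1 had 41 and 93. DUSP1, at 0.79, thus went the other way from most of this list. Their part in the DUSP1 and PER1 values was not tested.

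Finally, the genes around KLF9 and NR3C1 were examined, a step chosen after the values of these members were seen. On each side, the 5 nearest protein-coding genes with at least 10 reads in either library were taken. ALDH1A1 and APBA1 near KLF9 and PRELID2 near NR3C1 were under 10 reads in REH and entered through 697. KCTD16 near NR3C1 (14 and 7 reads) entered through REH. Over all protein-coding genes compared, 51.0% had a ratio above 0. Around KLF9, all 10 had a ratio below 0 (median -1.56), ranging from -0.21 (ZFAND5) to -12.12 (ALDH1A1, 6 and 21280 reads). Of these 10, 4 were past the threshold in 697, against 8.15% of all genes compared. The nearest, SMC5, a subunit of a chromosome maintenance complex, was well expressed in both lines at 76.2 and 129 CPM (log2 ratio -0.76). APBA1, whose lower end lies 957 kb from that of KLF9, had 8 and 2919 reads (log2 ratio -8.87). Without TMM scaling, an alternative added after seeing the data, 9 of the 10 were below 0 and ZFAND5 was at 0.09. Around NR3C1, 4 ratios were below and 6 above 0 (median 0.46), and the nearest genes on either side were ARHGAP26 (-0.91) and HMHB1 (-0.51). These 10 ratios ran from -9.06 (PRELID2, 0 and 196 reads) to 2.66 (GNPDA1, 1770 and 206 reads), with 1 past the threshold in each direction. Lower values in REH were therefore seen at all 10 genes around KLF9 and at 4 of 10 around NR3C1, and the cause was not tested.

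**Figure D5:**
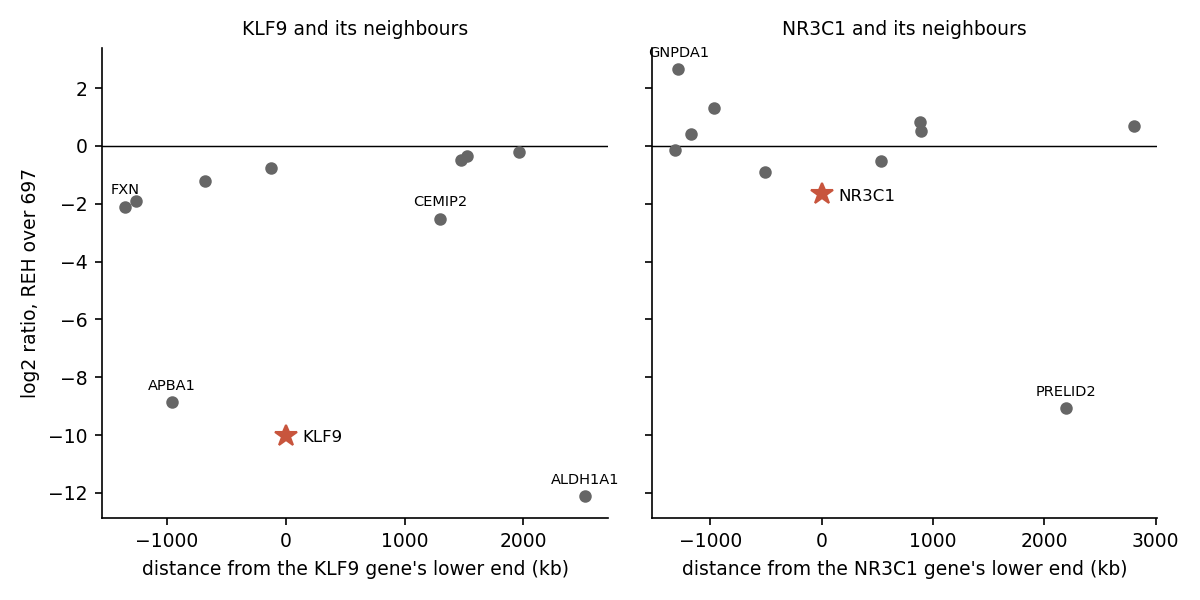
Log2 ratio (REH over 697) of KLF9 (left) and NR3C1 (right), drawn as stars, against the distance in kb between the lower ends of the genes. Points are the 5 nearest protein-coding genes on each side with at least 10 reads in either library. The 10 points around KLF9 lie below 0 with TMM scaling, whereas those around NR3C1 lie on both sides.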

How the data were processed

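RNA sequencing covered 1 library each of REH and 697, grouped by the cell line label. The authors deposited raw read counts per gene from STAR (2.4.2a per the study's methods), not normalized or filtered. The labels name hg19 and ribodepleted, stranded libraries, whereas the methods name hg38 and poly(A) purification. Reads were even over the strands (50.1% and 50.2% on the gene strand), so counts irrespective of strand were taken. Multimapping reads (10.8% in REH and 15.4% in 697) and ambiguous reads (4.58% and 4.41%) were not assigned to genes.

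GENCODE 44 on GRCh38 gave symbols, positions and exon lengths for 51996 of 57773 IDs. These are not the authors' coordinates. A gene was compared if either library gave it 10 reads or more (19145 genes). TMM factors from edgeR 4.0.16 under R 4.3.3 were 1.11 for REH and 0.899 for 697. No gene has a p-value. Alternatives were unscaled totals, size factors of DESeq2 1.42.0, TMM on protein-coding genes, scaling to reference genes, minimums of 1 and 50 reads, 5 reads added, a threshold of 1, each strand column and the longest transcript as gene length. Of each pathway list, genes past the threshold were named, at most 6 per direction by the interval bound nearest 0, with those that bear on a member's result. CARM1, EP300, FOS and EGR1 and the genes near KLF9 and NR3C1, and the 3 other motifs, were picked after their values were seen. Python 3.11.15 with scipy 1.17.1 did the rest, and ratios and intervals were tested on simulated data. The members and lists were chosen with earlier results of these data known. One gene of the steroid receptor list is not reported here.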

Additional observations from a re-analysis of the deposited data

How the results depend on the processing

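No paired analysis was possible because REH and 697 had 1 library apiece, and likewise no replicate could be left out. Of the 7 member ratios, 6 kept their sign under the settings run, and PER1 did not. Without TMM scaling, log2 ratios were -1.37 for NR3C1, -0.81 for FKBP5, 0.25 for PER1, 0.99 for TSC22D3 and 1.10 for DUSP1, and the list medians were 0.63 for chaperones, 0.37 for coregulators and -0.32 for immediate early genes. With the reference genes' median set to 0 these were -1.38, -0.82, 0.25, 0.98, 1.09, 0.62, 0.36 and -0.33. Further medians given above that moved by over 1.5 times without TMM were those of the reference genes (-0.30 to 0.0086), the other induced genes (0.36 to 0.67), the target relatives (0.30 to 0.61) and the members (-0.05 to 0.25, and 0.32 with a minimum of 1 read), the first and the last with a change of sign. Under either scaling 8 of 35 other induced genes and 2 of 12 target relatives were higher in REH. The latter number was also 2 in the gene-strand column, where NR3C1 was -1.58 and DUSP1 0.86, and NR3C1 was -1.74 in the opposite-strand column. Either scaling moves the ratios of all genes toward REH compared with TMM. The share of all genes past the threshold at these settings is not given here, so these counts cannot be set against a background. With 5 reads added KLF9 was -8.02.

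At a log2 ratio of 1, 17.4% of all genes compared were higher in 697 and 22.4% in REH. Higher in 697 were 3 of 7 members, 2 of 12 target relatives and 2 of 11 immediate early genes. So were 2 of 3 ligand genes, 2 of 10 reference genes and 4 of 35 other induced genes. Higher in REH were 13 of 35 other induced genes, 3 of 12 target relatives and 1 of 18 coregulators. With a minimum of 1 read, 2 immediate early genes and 2 ligand genes were past the threshold in 697 and 1 ligand gene in REH. The genes added were EGR3 (1 read in REH and 7 in 697), ABCB1 (0 and 1) and HSD11B2 (5 and 0). The intervals of ABCB1 and HSD11B2 span 0. The share of all genes at this minimum is not given here. By the longest transcript, PER1 ranked 3 and FKBP5 4 per kb in REH, and the other ranks were equal. Depth limits ZBTB16 in both libraries and KLF9 in REH, where 3 reads correspond to 0.0597 CPM. The cause of these changes was not tested.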
